A study of Rattus norvegicus with 16 samples.

Results

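The neurotrophin genes and receptors examined here were Bdnf, Ntf3, Ntrk2, Ntrk3 and Ngfr in the hippocampus of rats after chronic mild stress. They were found by matching the RefSeq identifier of each array probe to a gene symbol, and each gene was represented by its brightest probe. All 5 were on the array, with 6 probes among them, out of 13903 genes named in this way. All 5 were well above background on every one of the 16 arrays.

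Neurotrophins are secreted growth factors. Brain-derived neurotrophic factor (Bdnf) binds the receptor TrkB (Ntrk2), and neurotrophin-3 (Ntf3) binds mainly TrkC (Ntrk3). The p75 receptor (Ngfr) binds all mature neurotrophins and, with sortilin, their uncleaved precursors. In the hippocampus Bdnf is made by excitatory neurons in response to activity and acts in synaptic plasticity.

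The animals were male Sprague-Dawley rats, bought at a weight of 250 g, of unstated age and housed alike. Control rats were kept free of chronic mild stress, a schedule of repeated mild stressors. The other rats were exposed to it for 8 weeks and are labelled depression-susceptible, anxiety-susceptible or insusceptible, with 4 arrays in each of the 4 groups; the labels do not state the rule that sorted them. RNA of dissected hippocampus, freed of ribosomal RNA, was amplified with random primers, labelled with Cy3 and hybridised to one-colour Agilent arrays. Whole hippocampus mixes cell types, so fewer cells of a type and less RNA per cell cannot be told apart.

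The 16 arrays lay on 4 slides. Control and depression-susceptible arrays shared slides 1 and 2, with 2 of each on either slide, whereas all anxiety-susceptible arrays were on slide 3 and all insusceptible ones on slide 4. The 8 arrays of slides 3 and 4, scanned on a second day, were dimmer, with a 75th percentile of the processed signal of 1077 to 1248 against 2997 to 3382 on the first day. Same-group arrays from the same slide varied only 0.44 to 0.72 times as much as repeated spots of a probe. They were therefore averaged, leaving 6 samples: 1 each of the anxiety-susceptible and insusceptible groups and 2 each of control and depression-susceptible. The labels do not say whether the arrays came from separate animals. The p-values therefore measure only the spread between slides 1 and 2, within the control and depression-susceptible groups. They include no spread between the days and none of slides 3 and 4. Apart from depression-susceptible against control, group and slide cannot be told apart in any comparison, and even there position on the slide follows the group.

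Neuron, astrocyte and oligodendrocyte markers were all well above background at least on some arrays, as a hippocampal sample requires. Markers of other tissue differed between groups. The mean of 11 choroid plexus genes relative to control was -3.80 and -3.93 (log2) in the depression-susceptible samples, -1.91 in the anxiety-susceptible and -4.33 in the insusceptible sample. The mean of 5 red blood cell genes was 2.14 and 2.01 above control in the depression-susceptible samples, against -0.46 and 0.18 in the other stressed samples. The mean of 11 neuron genes lay 0.18 to 0.46 below control in every stressed sample. Relative to control, the mean of 8 microglia genes was -0.58 to -0.40 and that of 6 dentate gyrus neuron genes -0.46 to -0.16. Astrocyte, oligodendrocyte and endothelial means were also below the control mean in every stressed sample, by varying amounts. The part of these marker differences in the results below was not tested.

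Bdnf and Ntf3, called lower in the comparisons below, both have alternative transcription starts. RefSeq (build GRCr8) lists 6 start windows for Bdnf and 3 for Ntf3. The array has 1 probe for each of these genes, so it does not separate the transcripts of different starts. Shown are the 120 bases upstream of the first Bdnf start at chr3:116619513-116619632 (plus strand), the fourth at chr3:116637738-116637857 (plus strand), and 2 Ntf3 starts at chr4:160670624-160670743 and chr4:160668908-160669027 (both minus strand). Capitals mark the core CGTCA of the cAMP response element, or TGACG on the other strand, to which activity-regulated CREB factors bind.
Bdnf start 1: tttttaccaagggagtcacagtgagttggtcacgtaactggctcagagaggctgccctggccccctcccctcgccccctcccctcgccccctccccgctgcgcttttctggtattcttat
Bdnf start 4: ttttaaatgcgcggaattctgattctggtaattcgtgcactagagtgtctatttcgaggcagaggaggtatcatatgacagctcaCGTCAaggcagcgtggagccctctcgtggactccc
Ntf3 start 1: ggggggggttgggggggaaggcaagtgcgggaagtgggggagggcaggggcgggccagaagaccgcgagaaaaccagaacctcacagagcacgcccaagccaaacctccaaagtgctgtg
Ntf3 start 3: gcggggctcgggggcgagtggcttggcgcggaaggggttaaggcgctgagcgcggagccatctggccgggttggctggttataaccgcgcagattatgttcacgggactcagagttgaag
Of the 6 Bdnf windows only the fourth holds the motif, and none of the 3 Ntf3 windows does. Over all 33469 windows of this length, 11.5% hold it. The E-box CACGTG, the same on both strands and with no overlap here, is in none of these windows and in 3.17% of all. A match is a description of the letters only.

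Bdnf was lower in every stressed sample than in either control sample. Levels are given as log2 of the processed signal minus log2 of that array's 75th percentile, so a step of 1 is a doubling, and levels of different probes are not compared. The 4 control arrays read 1.36, 1.33, 1.51 and 1.63. The depression-susceptible arrays read 1.24, 1.13, 0.84 and 0.96. The anxiety-susceptible arrays read 0.26, 0.15, 0.16 and 0.16, and the insusceptible arrays 0.48, 0.52, 0.52 and 0.54. None of the 12 stressed arrays overlapped the control range, and all 8 arrays of the second day lay below all 8 of the first. Arrays of 1 group on 1 slide are close repeats. No share of all probes that separate in this way is given, here or for Ntf3, Ntrk3 and Ngfr below.

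Tests were made with limma on the 6 samples, with p-values adjusted by the Benjamini-Hochberg method over all probes tested and a threshold of 0.05. Bdnf fell by 1.28 (SE 0.18, 95% interval -1.79 to -0.77, limma adjusted p = 0.0205) in anxiety-susceptible against control, 2.42-fold. It fell by 0.94 (SE 0.18, limma adjusted p = 0.0331) in insusceptible against control, 1.92-fold. In depression-susceptible against control the difference was -0.41 (SE 0.15, 95% interval -0.83 to 0.00, limma adjusted p = 0.164), which did not pass. For scale, 16.6% of all probes tested were called lower in anxiety-susceptible, 14.3% in insusceptible and 3.15% in depression-susceptible against control. A lower difference than that of Bdnf was seen for 1.61% of probes in the anxiety-susceptible comparison, 4.27% in the insusceptible and 9.62% in the depression-susceptible one.

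Only the depression-susceptible comparison has values within a slide. There Bdnf differed by -0.44 on slide 1 and -0.38 on slide 2, while slide 2 read higher than slide 1 in both groups. When the slide entered the 6-sample fit as a block, which leaves 1 residual degree of freedom, the same difference had SE 0.05 and limma adjusted p = 0.0179. That fit called 38.4% of all probes, so passing it sets a gene little apart.

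By group level, Bdnf was highest in control (1.46 ± 0.16, SD, n = 2), then in depression-susceptible (1.04 ± 0.20, SD, n = 2), insusceptible (0.51, n = 1) and anxiety-susceptible samples (0.18, n = 1). No neighbours in that order differed past the threshold. Depression-susceptible exceeded insusceptible by 0.53 (95% interval 0.02 to 1.04, limma adjusted p = 0.154), and anxiety-susceptible minus insusceptible was -0.33 (95% interval -0.92 to 0.25, limma adjusted p = 0.679). Depression-susceptible minus anxiety-susceptible was 0.86 (95% interval 0.36 to 1.37, limma adjusted p = 0.0781). Leaving out either control sample ended both Bdnf calls, with adjusted p of 0.056 and 0.0635 in anxiety-susceptible and 0.0703 and 0.0841 in insusceptible against control; the values then ranged from -1.39 to -1.16 and from -1.06 to -0.83. The insusceptible call was also lost when arrays were scaled to the 75th percentile of the always detected probes (-0.76, adjusted p = 0.053).

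**Figure D1:**
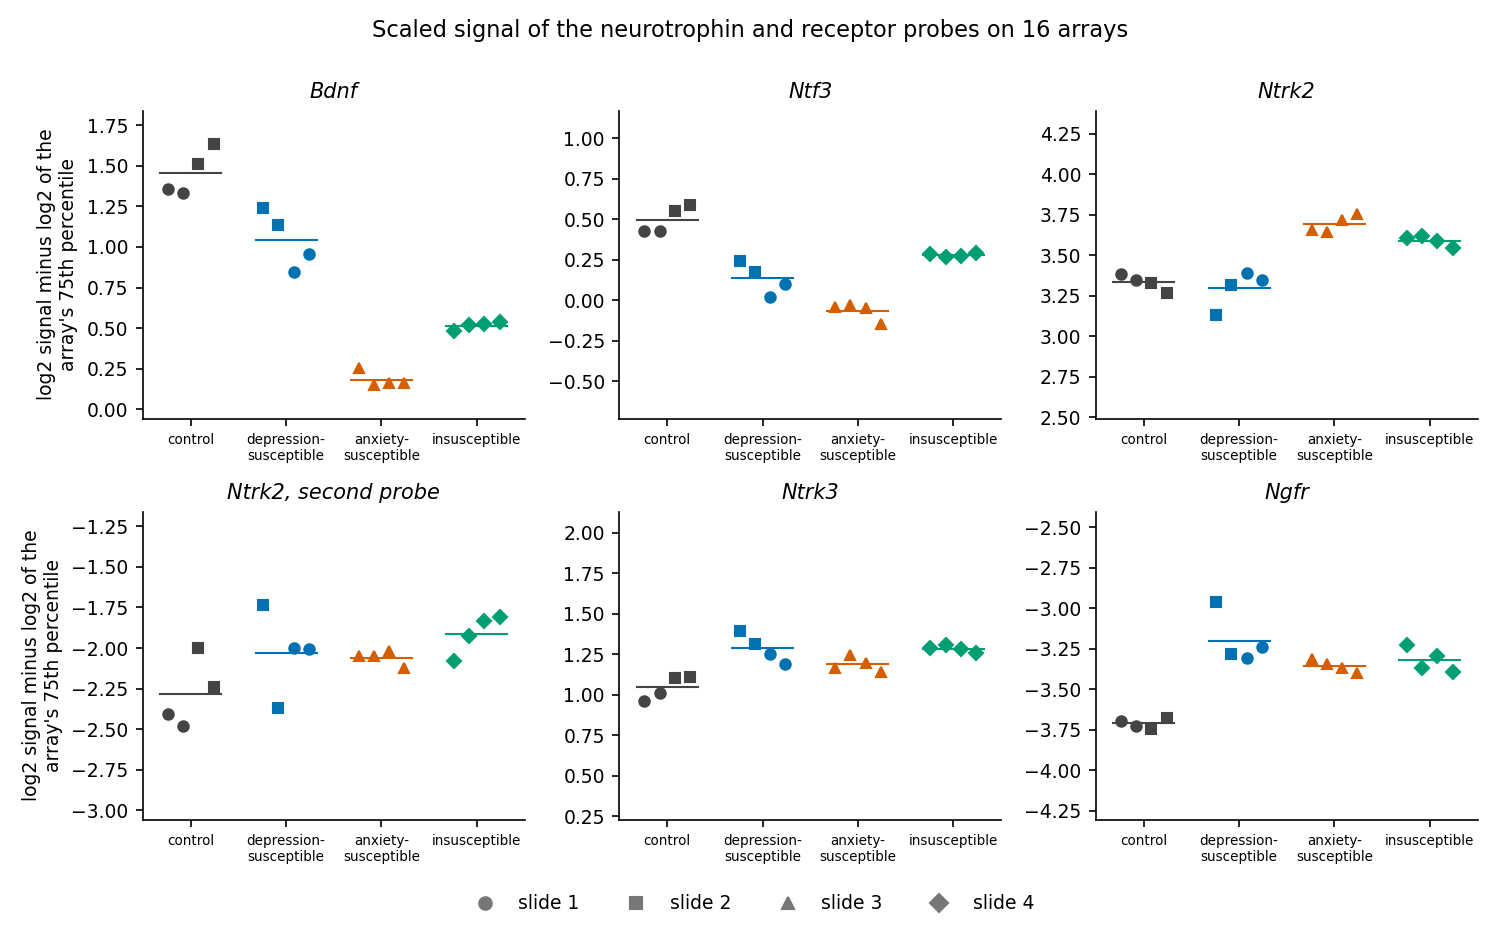
Log2 processed signal minus log2 of the array's 75th percentile (y axis) for the 6 probes on the 16 arrays, by group (x axis). Each point is 1 array, its shape is the slide and the line is the mean over the group's samples. Every panel spans the same height; Bdnf falls from about 1.46 in control to 0.18 in anxiety-susceptible, and the 4 Ngfr control arrays sit below all stressed arrays.

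Ntf3, the other neurotrophin well above background throughout, was also lower on every stressed array, by less. Control arrays read 0.43, 0.43, 0.55 and 0.59. Depression-susceptible arrays read 0.24, 0.18, 0.02 and 0.10, anxiety-susceptible arrays -0.04, -0.03, -0.05 and -0.14, and insusceptible arrays 0.29, 0.27, 0.27 and 0.29. The groups did not overlap the control range, and the anxiety-susceptible arrays were the lowest.

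Ntf3 fell by 0.56 (SE 0.12, 1.48-fold, limma adjusted p = 0.0423) in anxiety-susceptible against control. The difference was -0.36 (SE 0.10, limma adjusted p = 0.111) in depression-susceptible and -0.22 (SE 0.12, limma adjusted p = 0.244) in insusceptible. Within slides, depression-susceptible minus control was -0.36 on both slide 1 and slide 2, and the fit with the slide as a block gave limma adjusted p = 0.02. The anxiety-susceptible call was lost when any one of the control or depression-susceptible samples was left out (adjusted p 0.0786 to 0.124) and when depression-susceptible array 2 or 4 was (0.052 and 0.0503). Scaling to the 75th percentile of the always detected probes also ended it (-0.38, adjusted p = 0.108).

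Ntf4, the third neurotrophin on the array and the other ligand of TrkB, was near background. It was well above background on all 4 arrays of the control, depression-susceptible and anxiety-susceptible groups and on 0 of 4 insusceptible arrays. Its differences from control were 0.18 in depression-susceptible and 0.38 in anxiety-susceptible rats (SE 0.24 and 0.30), within the error.

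Ntrk2, the Bdnf receptor, had no difference that passed. Its bright probe read 3.39, 3.35, 3.33 and 3.27 in control. It read 3.13, 3.31, 3.39 and 3.35 in depression-susceptible, 3.65, 3.64, 3.72 and 3.75 in anxiety-susceptible and 3.61, 3.62, 3.59 and 3.55 in insusceptible arrays. The first 2 groups overlapped, and all arrays of the second day lay above all arrays of the first. The differences from control were -0.04 (95% interval -0.29 to 0.22, limma adjusted p = 0.813), 0.36 (95% interval 0.05 to 0.67, limma adjusted p = 0.0819) and 0.26 (95% interval -0.06 to 0.57, limma adjusted p = 0.155) in the same order.

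The Ntrk2 values turned with the scaling. Under quantile normalization the differences were 0.19, 0.78 and 0.69, with the last 2 past the threshold (limma adjusted p = 0.0115 and 0.0142). With each array scaled to its median they were -0.15, 0.07 and -0.08. No direction is therefore given for Ntrk2.

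A second Ntrk2 probe, targeting another RefSeq transcript, was more variable. Its differences were 0.25 (SE 0.14), 0.22 (SE 0.17) and 0.37 (SE 0.17) in depression-susceptible, anxiety-susceptible and insusceptible against control, none called. Its depression-susceptible arrays on slide 2 differed by 0.64 (-1.73 and -2.37), more than the largest difference of this probe from control. Within slides, depression-susceptible minus control was 0.44 on slide 1 and 0.07 on slide 2. Ntrk2 encodes a full-length kinase receptor and truncated forms without the kinase, and which of them each probe reads is not given in the files.

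Ntrk3, the Ntf3 receptor, read 0.96, 1.01, 1.1 and 1.11 in control and 1.40, 1.32, 1.25 and 1.19 in depression-susceptible arrays. It read 1.17, 1.25, 1.20 and 1.14 in anxiety-susceptible and 1.29, 1.31, 1.28 and 1.26 in insusceptible arrays. Every stressed array lay above every control array. The differences were 0.24 (SE 0.10, limma adjusted p = 0.19), 0.14 (SE 0.12, limma adjusted p = 0.397) and 0.24 (SE 0.12, limma adjusted p = 0.192), none past the threshold. Median scaling turned the last 2 to -0.14 and -0.10.

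In depression-susceptible against control, Ntrk3 differed by 0.23 on slide 1 and 0.25 on slide 2, and by 0.12 to 0.32 under the alternatives that left out no sample. With the slide as a block its limma adjusted p was 0.0387.

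Ngfr, the p75 receptor gene, is known as a marker of basal forebrain cholinergic neurons, whose axons reach the hippocampus, and is also found in glia and vessel-associated cells. Its control arrays read -3.69, -3.73, -3.74 and -3.67. Depression-susceptible arrays read -2.96, -3.28, -3.31 and -3.24, anxiety-susceptible arrays -3.32, -3.35, -3.37 and -3.40, and insusceptible arrays -3.23, -3.37, -3.30 and -3.39. All 12 stressed arrays lay above the 4 control arrays, which spanned less than 0.1.

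Ngfr rose by 0.51 (SE 0.09, 1.42-fold, limma adjusted p = 0.0483) in depression-susceptible against control, where 6.77% of all probes were called higher. It was 0.44 higher on slide 1 and 0.59 on slide 2. The call was narrow: it was lost when any 1 of the 4 control or depression-susceptible samples was left out (adjusted p 0.15 to 0.244), without control array 1, 2 or 3 or depression-susceptible array 1, 2 or 4 (0.0514 to 0.0821), and under 5 of the other alternatives. Array 1 of the depression-susceptible group stood 0.32 above array 2 on the same slide; without it the difference was 0.43.

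In anxiety-susceptible and insusceptible against control, Ngfr differed by 0.35 (SE 0.11, limma adjusted p = 0.0795) and 0.39 (SE 0.11, limma adjusted p = 0.0657), where 13.5% and 16% of all probes were called higher. These values moved with the scaling, to 0.06 and 0.04 under quantile normalization and to 0.52 and 0.59 under normexp background correction. Ngfr is a dim probe, with a processed signal of 102 to 434 over the 16 arrays.

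The mean of 7 meningeal and mural genes was also above control in the stressed samples: 0.54 and 0.43 above control in the depression-susceptible samples, 0.09 in the anxiety-susceptible and 0.52 in the insusceptible sample. Of the septal cholinergic markers, 3 of the 4 on the array were tested and 1 was never above background; their mean was -0.18 and -0.12 in the depression-susceptible samples, 0.09 in the anxiety-susceptible and 0.29 in the insusceptible sample. The part of either in the Ngfr values was not tested.

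**Figure D2:**
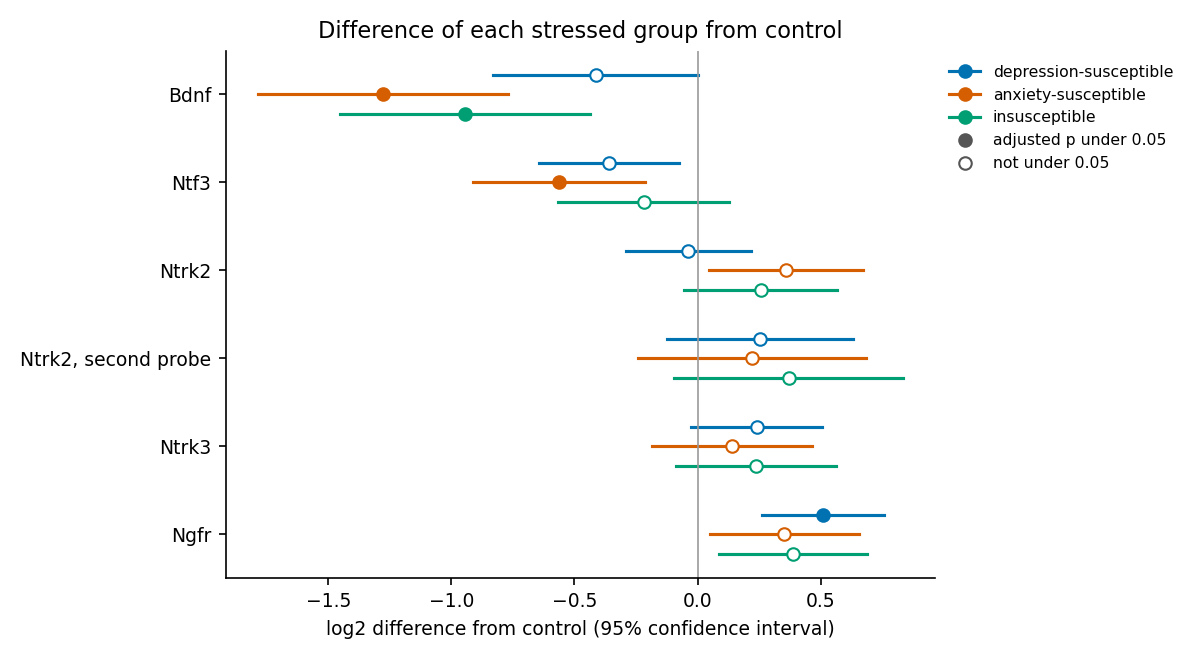
Log2 difference from control (x axis) of each probe (y axis) in the 3 stressed groups, with 95% confidence intervals from limma on 6 samples; filled points have an adjusted p under 0.05. The filled points are Bdnf in anxiety-susceptible (-1.28) and insusceptible (-0.94), Ntf3 in anxiety-susceptible (-0.56) and Ngfr in depression-susceptible (0.51).

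The mean of the 3 stressed groups was also compared with control. The anxiety-susceptible and insusceptible samples were scanned on another day than all controls, so stress, slide and day cannot be told apart in it. Such a mean does not show that every group differed. Bdnf fell by 0.88 (SE 0.13, limma adjusted p = 0.0173), Ntf3 fell by 0.38 (SE 0.09, limma adjusted p = 0.0416) and Ngfr rose by 0.42 (SE 0.08, limma adjusted p = 0.026). Of all probes, 19.3% were called lower and 17.2% higher in this comparison, so a call alone is common here; with the 75th percentile of always detected probes 1897 probes were lower and 4481 higher, and with median scaling 7152 and 1685. Ntrk2 (0.19, SE 0.08) and Ntrk3 (0.21, SE 0.08) did not pass. The Bdnf call was lost without either control sample (adjusted p 0.0586 and 0.0712), and the Ntf3 and Ngfr calls without any 1 of the 4 control or depression-susceptible samples (0.0764 to 0.173 and 0.0544 to 0.121). These comparisons share the control samples and are not independent of each other.

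A ratio of probes within an array does not change when 1 factor scales the whole array. It can change under quantile normalization, normexp or the deposited values, where probes shift by different amounts. The ratios below use the main scaling only. Set against its control mean, the Ntf3 over Ntrk3 ratio was -0.01 and 0.01 (log2) in the control samples. It was -0.61 and -0.60 in the depression-susceptible samples on slides 1 and 2, -0.70 in the anxiety-susceptible and -0.45 in the insusceptible sample. The stressed samples thus lay outside the range of the 2 control samples, which were both scanned on the first day. No share of other probe pairs that separate in this way is given.

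The Bdnf over Ntrk2 ratio was -0.15 and 0.15 in control and -0.59 and -0.16 in depression-susceptible samples on slides 1 and 2. It was -1.64 in the anxiety-susceptible and -1.20 in the insusceptible sample. The Bdnf over Ngfr ratio was -0.11 and 0.11 in control and -0.99 and -0.86 in depression-susceptible samples, and reached -1.63 with anxiety susceptibility and -1.33 in the insusceptible sample. The depression-susceptible samples were outside the control range for both ratios, though for Bdnf over Ntrk2 by only 0.01 on slide 2.

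The ratio of the ligands separated the days. Bdnf over Ntf3 was -0.04 and 0.04 in control and -0.12 and 0.02 in depression-susceptible samples, so both ligands were lower by about the same amount there. It was -0.71 in the anxiety-susceptible and -0.73 in the insusceptible sample. With 2 control samples and 1 sample in each of the last groups, these ratios were not tested, and the day of scanning cannot be told apart from the group.

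**Figure D3:**
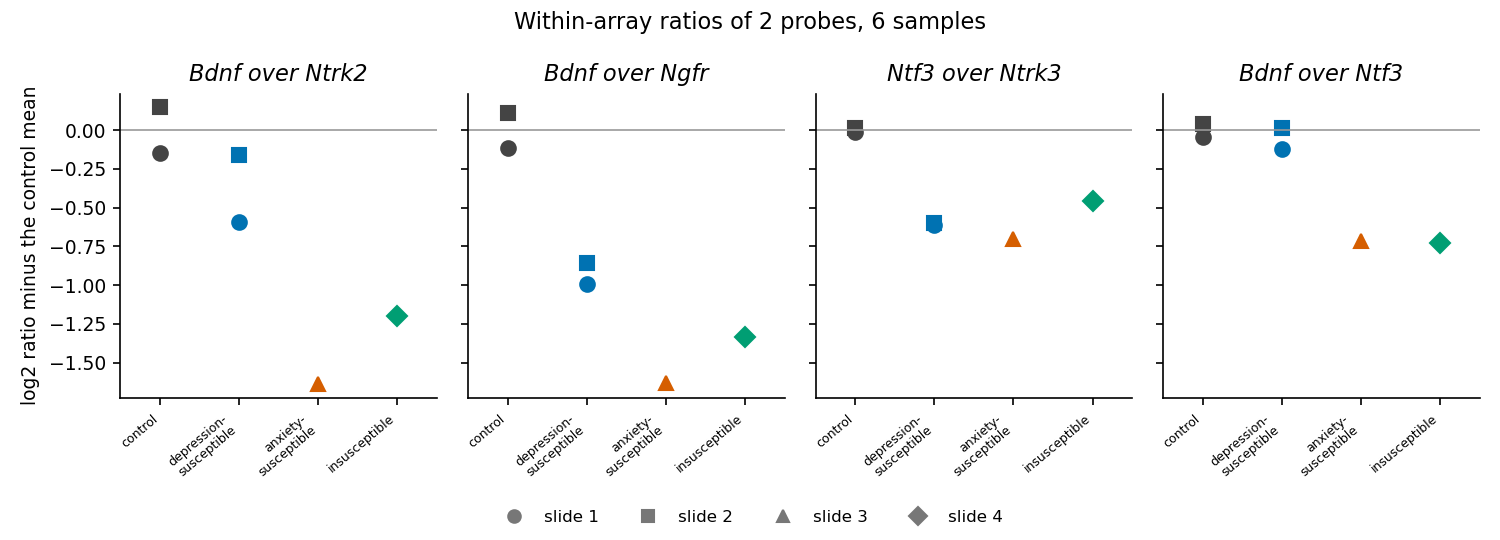
Within-array log2 ratios of 2 probes, minus the mean of the control samples (y axis), in the 6 samples by group (x axis); the shape is the slide. Ntf3 over Ntrk3 lies between -0.45 and -0.70 in all stressed samples, whereas Bdnf over Ntf3 is -0.71 and -0.73 in the samples of slides 3 and 4 and between -0.12 and 0.04 in those of slides 1 and 2.

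Among the stressed groups none of the 5 genes passed in the main fit, and passes without averaging are given in the last section. Some did under an alternative: in depression-susceptible against anxiety-susceptible, Bdnf under normexp (0.85, limma adjusted p = 0.0244) and Ntrk2 under quantile normalization (-0.60, limma adjusted p = 0.0391) and in the deposited values (-0.59, limma adjusted p = 0.044). In depression-susceptible against insusceptible 0.084% of all probes were called, in anxiety-susceptible against insusceptible 0.0783% and in depression-susceptible against anxiety-susceptible 0.23%. At an unadjusted p under 0.05 the counts were 5454, 1980 and 5632 of the probes tested. Ntf3 in anxiety-susceptible against insusceptible was -0.35 (95% interval -0.75 to 0.06, limma adjusted p = 0.503), and Ngfr was -0.03 (95% interval -0.38 to 0.31). Ntrk2 in depression-susceptible against anxiety-susceptible was -0.40 (95% interval -0.71 to -0.08, limma adjusted p = 0.112).

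The rest of the pathway was described with 7 lists of 155 genes, of which 121 were on the array and 114 were tested. In depression-susceptible against control 7 were called lower and 1 higher, in anxiety-susceptible 27 and 4, and in insusceptible 26 and 7. Over all probes, 3.15% were called lower and 6.77% higher in the first comparison, 16.6% and 13.5% in the second and 14.3% and 16% in the last. The median difference of these genes was -0.11, -0.12 and -0.20, beside -0.06, -0.12 and -0.06 over all named genes. The split turned on the scaling: with the 75th percentile of always detected probes 3 were lower and 3 higher in depression-susceptible, 15 and 14 in anxiety-susceptible and 18 and 19 in insusceptible, and with median scaling 6 and 0, 48 and 2, and 57 and 2. Over all probes the split turned as well. Of the list genes called in the main fit, 12.9% were higher in anxiety-susceptible, beside 44.9% of called probes. The shares were 21.2% beside 52.8% in insusceptible and 12.5% beside 68.2% in depression-susceptible. With median scaling they were 4% beside 18.3% in anxiety-susceptible. The list share was also smaller in each group under the other scalings. Whether these genes differ from all probes was not tested. Without either control sample the calls dropped to 0 in depression-susceptible, to 4 and 2 in anxiety-susceptible and to 3 in insusceptible against control, and without either depression-susceptible sample to 0, 10 and 15. With the slide as a block, 29 were lower and 14 higher in depression-susceptible against control. Of the genes called in anxiety-susceptible, 29 of 31 kept their direction under all 6 other scalings, as did 30 of 33 in insusceptible and 8 of 8 in depression-susceptible. Only 14 of 31, 14 of 33 and 1 of 8 stayed past the threshold under all of them. No such share over all called probes is given.

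Of the receptors and coreceptors, 7 of 10 were tested. Nradd, a p75-related protein, rose by 0.69 (SE 0.10, limma adjusted p = 0.0201) in anxiety-susceptible and by 0.60 (SE 0.10, limma adjusted p = 0.0244) in insusceptible against control, and was at -0.11 in depression-susceptible. Under the other scalings its anxiety-susceptible value ranged from 0.36 to 0.87, past the threshold in 4 of 6. Sort1, which encodes sortilin, had values of -0.12, -0.02 and -0.14, and its relative Sorcs3 had 0.03, 0.04 and 0.11. Sorcs2, which pairs with p75 to bind proBDNF, had -0.16, -0.48 and -0.48, none called.

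Neurotrophins are made as precursors and cut by proprotein convertases, furin and, outside the cell, plasmin and matrix metalloproteinases. Of 14 such genes tested, none was called higher than in control in any group, and 1 (depression-susceptible), 3 (anxiety-susceptible) and 4 (insusceptible) were called lower, beside 3.15%, 16.6% and 14.3% of all probes. Pcsk7, a convertase of the secretory pathway, fell by 1.87 (SE 0.35, limma adjusted p = 0.0316) in anxiety-susceptible and by 2.25 (SE 0.35, limma adjusted p = 0.0234) in insusceptible, and was at -0.74 (SE 0.29) in depression-susceptible.

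Pcsk2, a convertase of dense-core vesicles, fell in all 3 groups, by 0.46 (limma adjusted p = 0.0425) in depression-susceptible and by 0.71 and 0.83 in the anxiety-susceptible and insusceptible groups. Its depression-susceptible call held under 2 of 6 other scalings. Pcsk1, its close relative, fell by 0.48 in anxiety-susceptible and was at -0.39 and -0.32 in the other groups. Hap1, which binds proBDNF for transport, fell by 0.59 in insusceptible. Mmp3, a metalloproteinase, was on 0 of 4 insusceptible arrays well above background, and control was at least 1.18-fold higher in the main scaling.

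The other processing genes named here did not pass in any group against control. Furin was at -0.10, -0.11 and -0.40, and Pcsk6 at -0.02, -0.23 and -0.31. Cpe and Scg3, which sort cargo into dense-core vesicles, were at -0.44, -0.05 and -0.30 and at -0.22, -0.28 and -0.10. Plasmin system genes were Plat, tissue plasminogen activator (0.32, 0.23 and 0.03), Plg, plasminogen (0.21, 0.21 and 0.48, well above background on 2 of 4 insusceptible arrays), and Serpini1, neuroserpin (-0.16, -0.20 and -0.27). Mmp9 was at 0.05, 0.27 and 0.27.

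Of 44 Trk signalling genes tested, 2 were lower in depression-susceptible, 10 lower and 1 higher in anxiety-susceptible, and 8 lower and 3 higher in insusceptible against control. Over all probes 3.15%, 16.6% and 14.3% were called lower and 6.77%, 13.5% and 16% higher. The medians of this list were -0.06, -0.09 and -0.07, near those of all named genes. Mapk3, which encodes ERK1, fell by 1.06 and 1.32 in anxiety-susceptible and insusceptible and was at -0.54 in depression-susceptible.

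The adaptor gene Crk fell by 1.07 and 0.58, and the kinase gene Cdk5 by 0.93 and 0.89, in anxiety-susceptible and insusceptible. Plcg1, phospholipase C gamma, rose by 0.61 and 0.40 in these groups. Map2k5, the kinase upstream of ERK5, rose by 0.48 and Slitrk5, a TrkB partner, by 0.50 in insusceptible. Gab2, a docking protein, fell by 0.46 in depression-susceptible. It was on 0 of 4 insusceptible arrays well above background, where control was at least 1.02-fold higher in the main scaling.

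Of 16 p75 signalling genes tested, 1 was lower in depression-susceptible, 4 lower in anxiety-susceptible, and 4 lower and 1 higher in insusceptible, against 3.15%, 16.6% and 14.3% of all probes called lower and 16% higher in insusceptible. Bex3, the p75-associated protein also called NADE, fell by 0.66 (limma adjusted p = 0.0476), 1.17 (limma adjusted p = 0.0159) and 1.16 (limma adjusted p = 0.0162) in the 3 groups. Its depression-susceptible call held under 1 of 6 other scalings. Maged1, the p75 partner NRAGE, fell by 0.99 and 0.98, Ncstn, a subunit of gamma-secretase, by 0.81 and 0.76, and Mapk9, the kinase JNK2, by 0.75 and 0.52 in anxiety-susceptible and insusceptible. Prdm4, which binds p75, rose by 0.56 in insusceptible.

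Of 14 tested genes that act on Bdnf transcription, 1 was lower in depression-susceptible, 3 lower and 1 higher in anxiety-susceptible, and 2 lower and 2 higher in insusceptible. The shares of all probes called lower were 3.15%, 16.6% and 14.3%, and 13.5% and 16% were called higher in the last 2 comparisons. Crtc2, a CREB coactivator, rose by 1.02 in both anxiety-susceptible (limma adjusted p = 0.0129) and insusceptible (limma adjusted p = 0.0134) and was at 0.48 (limma adjusted p = 0.0514) in depression-susceptible. Nfatc4, a calcium-regulated factor, rose by 0.88 in insusceptible. Carf, which binds a calcium-response element of the Bdnf gene, fell by 0.60 in both anxiety-susceptible and insusceptible, and Bhlhe40, a repressor, fell by 0.59 in anxiety-susceptible.

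Ppargc1a, the coactivator PGC-1alpha, fell by 0.80 (SE 0.08, limma adjusted p = 0.0156) in depression-susceptible. It was well above background on 1 of 4 anxiety-susceptible and 0 of 4 insusceptible arrays. In the main scaling, control was at least 1.75-fold higher than insusceptible. That bound does not hold under normexp, where the anxiety-susceptible and insusceptible values of Ppargc1a turned to 0.37 and 0.34. No direction is therefore given for it in these groups.

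Of 16 genes induced by activity or Bdnf, 2 were lower in depression-susceptible, 5 lower and 1 higher in anxiety-susceptible, and 7 lower in insusceptible, where 3.15%, 16.6% and 14.3% of all probes were called lower, and 13.5% higher in anxiety-susceptible. The medians were -0.24, -0.37 and -0.52, beside -0.06, -0.12 and -0.06 over all named genes. Dusp6, the phosphatase that ERK signalling induces and that acts on ERK, fell by 1.17 (SE 0.14, limma adjusted p = 0.0238) in depression-susceptible, by 0.82 in anxiety-susceptible and by 0.88 in insusceptible. It was the only pathway list gene called in depression-susceptible that stayed past the threshold under all 6 other scalings. That call too was lost when any 1 of the control or depression-susceptible samples was left out. Npy, neuropeptide Y of interneurons, fell by 0.54, 1.30 and 1.41.

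The immediate early genes did not move as 1 group. Fos rose by 1.06 (SE 0.17, limma adjusted p = 0.0247) in anxiety-susceptible and was at 0.37 in depression-susceptible and -0.28 in insusceptible. Egr2 fell by 0.81 and Egr4 by 0.75 in insusceptible. Nptx2, neuronal pentraxin-2, fell by 0.61 and Gadd45b by 0.49 in anxiety-susceptible.

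Expression profiles most like each gene's were named by the smallest root mean square difference over the 6 samples, each gene centred on its mean, among 9869 genes above background on all arrays. For Bdnf these were Vps26a (0.07), Gabra4, Pdlim5, Rsl24d1 and Soat1 (0.08 each, log2). For Ntf3 they were Vps33a (0.03), Dnajb4 and Ctse (0.04 each), and for Ngfr Capn1, Nat8b and Lcp2 (0.04 each). For Ntrk2 they were Brd3, Gad1 and Alg1 (0.05 each), and for Ntrk3 C1h10orf90, Evc2 (0.02 each) and Ppp2r1b (0.03). With 6 samples on 4 slides, such likeness describes these libraries.

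The scaling decided how far most of these values can be read. Bdnf and Ntf3 stayed below control, and Ngfr above it, in all 3 stressed groups under each of the 6 scalings plotted. Ntf3 in insusceptible was only -0.03 (SE 0.13) with the 75th percentile of always detected probes, well within its error. For Bdnf the range was -1.56 to -1.09 in anxiety-susceptible, -1.28 to -0.76 in insusceptible and -0.53 to -0.33 in depression-susceptible. Median scaling, which moved the median of all probes by -0.28 and -0.33 in anxiety-susceptible and insusceptible, gave the lowest values.

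**Figure D4:**
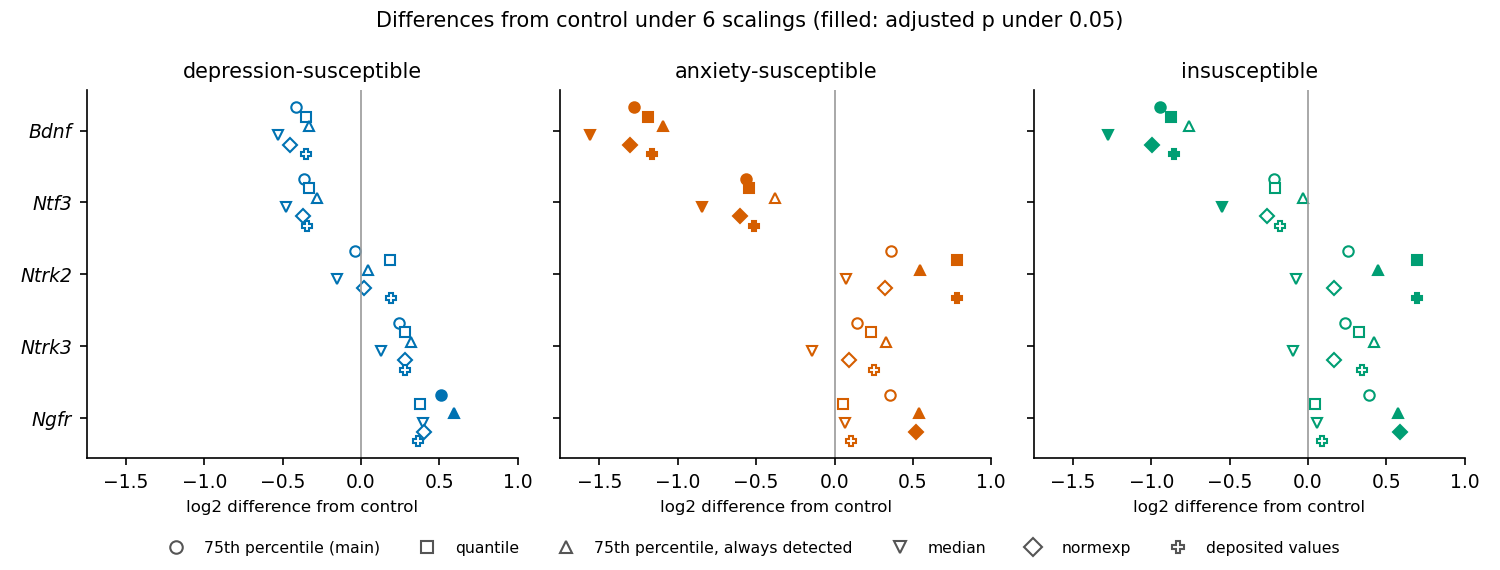
Log2 difference from control (x axis) of the 5 genes (y axis) in each stressed group under 6 scalings of the arrays, one symbol each; filled symbols have an adjusted p under 0.05. Bdnf and Ntf3 lie left of 0 and Ngfr right of it throughout, while Ntrk2 spans -0.15 to 0.78 across the panels.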

How the data were processed

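Per the file headers, each array was read with Agilent Feature Extraction 11.0.1.1, which gives a background-subtracted processed intensity per spot. Values were not adjusted across arrays in these files. The deposited value table, on a log2 scale, has nearly equal column medians of 7.486 to 7.490; its ranks match the scanner values (Spearman 0.996 to 1.000 per array), so direction and log scale are settled and no label names its software. The array design is annotated to rn4 per the file headers, and gene names came from RefSeq (GRCr8), so no gene coordinates are printed beyond RefSeq's own windows.

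Spots marked as outliers were left out and spots of a probe averaged. Log2 processed signal was scaled to the 75th percentile over all non-control spots. Probes well above background on at least 4 of 16 arrays (17883) were tested. Arrays of 1 group on 1 slide were averaged into 6 samples, and limma 3.58.1 (R 4.3.3; 2 residual degrees of freedom, all groups in 1 fit) tested 7 comparisons with Benjamini-Hochberg adjustment. The fit was checked for recovery on simulated data. No spot was saturated. The number of arrays limits the precision.

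The 5 genes, the gene lists and the tests were chosen with earlier results of these data known. Named were the 5 genes with all their probes, every tested ligand, receptor and processing gene, and of the other lists up to 4 called genes per direction with the largest size in a comparison; some genes of the lists are not reported here, though they stay in the counts. Alternatives were the replicate unit, replicate and slide blocks, quantile, median and other percentile scaling, normexp (on median signals, since mean signals are not in the files used, and without 2 arrays on which its fit failed), the filter, the deposited table, the mean of a gene's probes and leaving out arrays or samples. The percentile over probes and the changes to normexp were added after seeing the data.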

Additional observations from a re-analysis of the deposited data

Results flagged for a closer look

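On 1 of 4 anxiety-susceptible arrays Bdnf read 0.26 (log2, scaled) while the other 3 lay between 0.15 and 0.16, a gap of 0.909 of the group's range. On 1 of 4 anxiety-susceptible arrays Ntf3 read -0.14 while the other 3 lay between -0.05 and -0.03, a gap of 0.862 of the range. These were 2 of 24 combinations of probe and group checked, and chance flags about 1 in 20. The median SD between repeated spots of a probe on these arrays was 0.0693, and all 4 arrays lay on 1 slide.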

How the results depend on the processing

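Without averaging, each of the 16 arrays counted as 1 sample, and the differences were the same with smaller errors. Then Bdnf (-0.41), Ntf3 (-0.36) and Ntrk3 (0.24) passed in depression-susceptible against control, as they did with a random slide block and with the slide as a fixed block of the averaged samples. Ntrk2 (0.36), Ntrk3 (0.14) and Ngfr (0.35) passed in anxiety-susceptible, Ntf3 (-0.22), Ntrk2 (0.26), Ntrk3 (0.24) and Ngfr (0.39) in insusceptible, and Ntrk2 (0.19) and Ntrk3 (0.21) in the stressed mean against control, also with a random slide block except Ntrk3 in anxiety-susceptible. With the replicate block on 16 arrays the same values passed, Bdnf in depression-susceptible (-0.41) at limma adjusted p = 0.00229; the replicate numbers do not pair the samples, since same-numbered arrays correlated at -0.56 to 0.13 and control and depression-susceptible numbers cross the slides. In these fits Bdnf also passed between depression-susceptible and each of the other stressed groups. So did Ntrk2 (-0.29 minus insusceptible, -0.40 minus anxiety-susceptible). Ntf3 passed in anxiety-susceptible minus insusceptible (-0.35) and depression-susceptible minus anxiety-susceptible (0.20). Without the random slide block, Bdnf in anxiety-susceptible minus insusceptible (-0.33) and Ntf3 in depression-susceptible minus insusceptible (-0.14) passed too. Ngfr in depression-susceptible minus anxiety-susceptible passed under 2 of 12 alternatives. The fits on 16 arrays with and without the replicate block count arrays of 1 slide as independent, and the random slide block estimates their correlation. They called 58, 53 and 74 pathway list genes (16 arrays, replicate block, random slide block) against 8 in depression-susceptible, 83, 83 and 66 against 31 in anxiety-susceptible, 89, 87 and 74 against 33 in insusceptible and 84, 82 and 81 against 41 in the stressed mean. Over all probes they called 9073, 8555 and 10401 against 1770, 12751, 12414 and 10151 against 5366, 13060, 12696 and 10249 against 5401, and 12604, 12242 and 11502 against 6506, in the same order of comparisons. A fixed slide block called 6848 probes and 43 list genes in depression-susceptible.

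Quantile normalization gave Ntrk2 0.19, 0.78, 0.69 and 0.55 in depression-susceptible, anxiety-susceptible, insusceptible and the stressed mean against control, and the values the authors deposited gave 0.19, 0.78, 0.69 and 0.56; all but the first passed. Under these 2 settings Ngfr did not pass in depression-susceptible (0.38 and 0.36) or the stressed mean (0.16 and 0.19), its anxiety-susceptible minus insusceptible value was 0.014 and 0.017, and Ntrk3 in depression-susceptible minus insusceptible was -0.047 and -0.065. Ntrk3 passed in the stressed mean under quantile normalization (0.28). With the 75th percentile of always detected probes, Bdnf in insusceptible (-0.76), Ntf3 in anxiety-susceptible (-0.38) and Ntf3 in the stressed mean (-0.23) no longer passed. Ntrk2 (0.043, 0.54, 0.44 and 0.34, the last 3 called), Ngfr (0.54 in anxiety-susceptible, 0.58 in insusceptible) and Ntrk3 in the stressed mean (0.36) were higher, and Ntrk3 was -0.10 and -0.0046 in depression-susceptible minus insusceptible and minus anxiety-susceptible.

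Median scaling turned Ntrk2 to -0.077 and -0.053 in insusceptible and the stressed mean, Ntrk3 to -0.14, -0.10 and -0.038 in anxiety-susceptible, insusceptible and the stressed mean, the second Ntrk2 probe to -0.064 in anxiety-susceptible, and Ntf3 to 0.074 in depression-susceptible minus insusceptible. Ngfr fell short in depression-susceptible (0.39) and the stressed mean (0.17), its anxiety-susceptible minus insusceptible value was 0.013, and Ntf3 passed in insusceptible (-0.55). Normexp gave Ntrk2 0.020 and Ngfr 0.40, not called, in depression-susceptible; Ngfr 0.52 and 0.59, called, in anxiety-susceptible and insusceptible; and Ngfr -0.19 and -0.12 in depression-susceptible minus insusceptible and minus anxiety-susceptible. Without the filter Ntf3 (-0.56 and -0.38 in anxiety-susceptible and the stressed mean) and Ngfr (0.51 and 0.42 in depression-susceptible and the stressed mean) did not pass, with more probes tested. The percentile over probes brought Ngfr in insusceptible (0.42) past the threshold. The mean of a gene's probes gave Ntrk2 0.11 in depression-susceptible against control and -0.023 in anxiety-susceptible minus insusceptible. In depression-susceptible the list count was 5 under quantile normalization, 3 under normexp, 4 with the percentile over probes, 5 in the deposited values and 1 without the filter, which called 901 probes, and the mean of probes called 1160. In anxiety-susceptible it was 50 under median scaling, 53 under normexp (9596 probes) and 9 without the filter (2252 probes). In insusceptible it was 59 and 51 under median scaling and normexp (9593 probes), and in the stressed mean 21 without the filter, while normexp called 10114 probes. Causes of these changes were not tested.

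Leaving out 1 array or 1 averaged sample, Bdnf ranged from -1.39 to -1.16 in anxiety-susceptible, -1.06 to -0.83 in insusceptible and -0.99 to -0.77 in the stressed mean; Ntf3 from -0.63 to -0.49 in anxiety-susceptible and -0.45 to -0.31 in the stressed mean; Ngfr from 0.43 to 0.59 in depression-susceptible and 0.39 to 0.44 in the stressed mean; and Ntrk2 from -0.11 to 0.036 in depression-susceptible. Ntrk3 in depression-susceptible minus insusceptible ranged from -0.064 to 0.073. Where an averaged sample was left out, the lone samples were assumed to vary like the others. Pathway list calls then ranged from 0 to 8 in depression-susceptible, 2 to 32 in anxiety-susceptible and 3 to 34 in insusceptible and 4 to 42 in the stressed mean, and calls over all probes from 391 to 1770, 780 to 5458, 955 to 5535 and 1298 to 6577 in the same order. Under all alternatives run, Bdnf and Ntf3 stayed lower and Ngfr higher than control in each stressed group. In insusceptible the smallest differences were -0.03 for Ntf3 and 0.04 for Ngfr. Of these genes Ngfr had the dimmest probe; how far signal over background limits its values was not tested.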
